A study of Mus musculus with 6 samples.

Results

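The Dlx homeobox genes and the noncoding transcripts that run beside them were followed in mouse embryos at embryonic day 16.5, in RNA of the lateral ganglionic eminence (LGE). The members were the rows of the deposited gene table whose symbol was Dlx1, Dlx2, Dlx5, Dlx6, Dlx1as, Dlx6os1 or Dlx6os2. These 7 symbols gave 8 of the 21286 rows, because a second, short row also carries the symbol Dlx6os1. Libraries came from Dlx1/2 -/- mutant embryos (3) and wild type littermates (3), all on a background mixed from C57BL/6J, 129S6 and CD1. The LGE, the source of striatal projection neurons and olfactory bulb interneurons, was dissected and frozen before extraction of total RNA. The labels do not say which parts of Dlx1 and Dlx2 the mutant alleles lack, how many embryos stand behind a library, or that libraries came from separate embryos, so p-values measure only the spread between these libraries, which may be technical. Library names differ in prefix between the genotypes, and a batch that follows them cannot be told apart from genotype.

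Dlx genes encode transcription factors that bind DNA through a homeodomain, and cells of the ventral forebrain use them when they take on a GABAergic fate. They are arranged in pairs that are transcribed towards each other, with shared enhancers between the partners. In the mouse forebrain DLX1 and DLX2 appear first in the lineage and DLX5 and DLX6 follow. Dlx6os1 holds the Evf transcripts, long noncoding RNAs known in mice to act at the enhancers between Dlx5 and Dlx6. Dlx1as is an antisense RNA of the Dlx1 locus and Dlx6os2 an antisense RNA of Dlx6.

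On GRCm38, in the GENCODE M21 annotation, Dlx1 (ENSMUSG00000041911) lies at chr2:71528113-71533981 on the plus strand and Dlx2 (ENSMUSG00000023391) at chr2:71543408-71546754 on the minus strand, 9426 bases apart. Dlx1as (ENSMUSG00000084946, chr2:71516454-71537891, minus strand) spans all of Dlx1. On the other chromosome Dlx6 (ENSMUSG00000029754, chr6:6863334-6868568, plus strand) and Dlx5 (ENSMUSG00000029755, chr6:6877805-6882085, minus strand) are 9236 bases apart. Dlx6os1 (ENSMUSG00000090063, chr6:6820189-6871592, minus strand) spans all of Dlx6, and its short second row (ENSMUSG00000098326, chr6:6871488-6871633, minus strand) is 146 bases long, overlaps its 5′ end by 105 bases and runs on beyond it. Dlx6os2 (ENSMUSG00000094868) is annotated at chr6:6863797-6865150 on the minus strand.

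No strand setting of the counting is given in the sources used here. How far an antisense row can be told from its partner therefore depends on shared exon bases and on any reads from introns. Dlx6 lies within an intron of Dlx6os1, and their annotated exons share 0 bases. Dlx1as and Dlx1 share 335 exon bases, which are 20.55% of the Dlx1as exons and 6.21% of the Dlx1 exons. Dlx6os2 and Dlx6 share 104 exon bases, all of them coding in Dlx6, but all 1354 bases of Dlx6os2 lie within the span of Dlx6. Reads from Dlx6 introns there could count for Dlx6os2, and their part was not tested. The short row shares 104 of its 146 bases with the first exon of the long Dlx6os1 row. Without strand, reads on bases shared by rows of opposite strands cannot be given to 1 row. The 2 Dlx6os1 rows lie on the same strand, so that strand would not separate them on their shared bases. Between the long Dlx6os1 row and Dlx6, which share 0 exon bases, spliced reads do not have this problem. Unspliced reads of Dlx6os1 could still fall on Dlx6, whose 5235 bases all lie in its intron, and their part was not tested. The longer of the 2 stretches that Dlx6 and Dlx6os2 share, 73 bases at the start of the second Dlx6 exon, is shown because a read within it fits both rows (chr6:6865078-6865150, GRCm38, on the Dlx6 strand).
Dlx6 and Dlx6os2 shared stretch: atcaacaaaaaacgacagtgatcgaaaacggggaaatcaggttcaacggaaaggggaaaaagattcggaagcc

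RefSeq promoter windows on GRCm38.p6 were found for 4 of the 7 symbols, as 5 windows of 250 bases before an annotated transcript start. They were searched for the homeodomain core motif TAATT on both strands, that is also as AATTA, with overlapping matches counted separately. The Dlx2 window held 0 matches at 66.4% G and C, and the Dlx1 window, before a transcript start 1332 bases inside the gene, held 0 at 68% G and C. The 2 windows of Dlx6os1 held 4 and 7 matches at 34% and 33.2% G and C. At least 4 matches were present in 1.38% and at least 7 in 0.107% of all 32851 windows, whose median is 52.4% G and C; 25% of all windows held at least 1 match. The window with 7 matches lies inside an annotated Dlx6os1 exon of another transcript. The Dlx6os2 window held 1 match. A match of 5 letters is no evidence of binding, and it is more frequent where A and T are. The Dlx2 window and both Dlx6os1 windows are shown for this contrast, with each match in capitals.
Dlx2, chr2:71546755-71547004, minus strand: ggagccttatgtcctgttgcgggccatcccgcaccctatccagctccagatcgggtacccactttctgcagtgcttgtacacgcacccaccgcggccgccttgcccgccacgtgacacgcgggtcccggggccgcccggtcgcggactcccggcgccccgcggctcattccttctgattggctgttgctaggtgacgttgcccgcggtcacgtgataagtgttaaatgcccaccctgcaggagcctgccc
Dlx6os1, chr6:6861684-6861933, minus strand: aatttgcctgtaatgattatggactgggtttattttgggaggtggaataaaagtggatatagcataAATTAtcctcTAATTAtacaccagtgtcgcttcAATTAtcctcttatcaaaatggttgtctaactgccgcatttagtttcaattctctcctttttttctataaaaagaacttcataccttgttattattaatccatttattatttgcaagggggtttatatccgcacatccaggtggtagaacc
Dlx6os1, chr6:6869534-6869783, minus strand: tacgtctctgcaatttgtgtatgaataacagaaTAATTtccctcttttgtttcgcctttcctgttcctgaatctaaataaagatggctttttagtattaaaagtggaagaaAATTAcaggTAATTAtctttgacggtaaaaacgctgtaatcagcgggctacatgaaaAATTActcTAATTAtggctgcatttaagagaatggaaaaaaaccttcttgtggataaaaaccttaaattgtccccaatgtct

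Library totals were 15670067 to 16196974 counts in the mutant and 10711630 to 16588359 counts in wild type. Of 15326 genes tested, 12.8% were called lower and 11.2% higher in mutant libraries (quasi-likelihood test of edgeR, p adjusted over all genes by Benjamini-Hochberg and below 0.05), and the median log2 fold change of all genes was 0.0028. All 3 mutant libraries lay below all 3 wild type libraries for 21.2% of the tested genes. The tissue label was checked on 11 markers of the LGE and its neurons, all of them detected in both groups. Their summed level was 2125 to 2749 CPM (counts scaled to library size) in the mutant libraries and 4224 to 4712 CPM in the wild type libraries, with 2 markers higher, 8 lower and 1 not passing the test. In bulk RNA fewer cells that express a gene and less RNA per cell cannot be told apart.

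Both targeted genes were still detected in every mutant library, and Dlx1 kept far more of its wild type level than Dlx2. Dlx1 had 1793, 1886 and 2188 reads in the mutant libraries and 9392, 12987 and 13775 reads in the wild type libraries. After scaling by the trimmed mean of M values (TMM) this was 109, 119 and 137 CPM in the mutant and 898, 843 and 831 CPM in wild type, so that the groups were far apart and 14.2% of the wild type level was left. Over the 9 pairs of a mutant and a wild type library that share ran from 12.2% to 16.6%. Dlx2 had 265, 245 and 297 reads in the mutant libraries and 4921, 6446 and 6949 reads in the wild type libraries. Here 3.85% of the wild type level was left, with a range of 3.29% to 4.46% over the library pairs, which did not meet that of Dlx1.

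The unequal remainder of the targeted pair was also seen in the ratio of their reads within a library, which does not depend on scaling. Per read of Dlx1, the mutant libraries held 0.148, 0.130 and 0.136 reads of Dlx2, and the wild type libraries 0.524, 0.496 and 0.504. All mutant ratios lay below all wild type ratios. The log2 ratio of Dlx2 to Dlx1, mutant minus wild type, was -1.88 ± 0.114 (SE), or 3.69-fold lower (limma adjusted p = 3.33e-10; 95% interval of the signed difference -2.16 to -1.61). The p-values of such ratios are too small, because all ratios to 1 row share the error of that row, and the 95% intervals use the variances of the single genes instead. These intervals take the 2 rows as independent, and they can be too narrow where the rows move apart within a group. By exact permutation of the 6 libraries the two-sided p was 0.1, the smallest value that 3 against 3 allows. Counts per gene do not show which exons the remaining reads came from, and the part of the altered alleles in them was not tested.

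**Figure D1:**
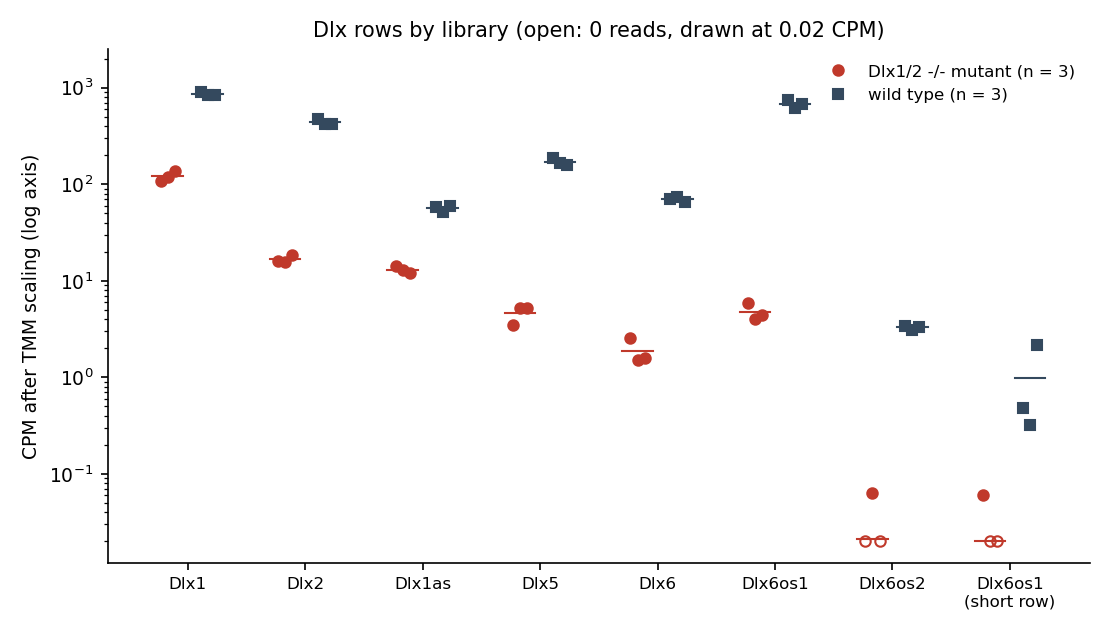
Level of each Dlx row in each library, in CPM on a log axis, with the 3 mutant libraries left of the 3 wild type libraries and a short line at each group mean; open symbols, drawn at 0.02 CPM, are libraries with 0 reads. Every mutant value lies below every wild type value of its row, from 109 to 137 against 831 to 898 CPM for Dlx1 and from 4.05 to 5.91 against 618 to 745 CPM for Dlx6os1.

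At the Dlx5 and Dlx6 locus, which carries no targeted gene, less was left of both partners than of Dlx1, and the shares left lay near that of Dlx2. Dlx5 had 57, 83 and 83 reads in the mutant libraries and 1935, 2583 and 2641 reads in the wild type libraries. That is 4.64 ± 1.02 CPM in the mutant and 170.6 ± 13.1 CPM in wild type (SD, n = 3 each), with 2.72% left and 1.88% to 3.29% over the library pairs. Dlx6 had 42, 24 and 25 reads in the mutant libraries and 739, 1134 and 1087 reads in the wild type libraries. This left 1.88 ± 0.586 CPM in the mutant against 69.9 ± 4.08 CPM in wild type (SD, n = 3 each), or 2.69%, with 2.06% to 3.90% over the library pairs. Both ranges met that of Dlx2. The partners did not move together within the mutant group, since replicate 1 was the lowest of the mutant libraries for Dlx5 and the highest for Dlx6.

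The long noncoding row of the locus lost the largest share among the 6 rows with reads in every library. Dlx6os1 had 97, 64 and 71 reads in the mutant libraries and 7791, 9514 and 11228 reads in the wild type libraries. The level in the mutant was 0.707% of that in wild type, with 0.543% to 0.956% over the library pairs, and the log2 fold change was -7.14 ± 0.180 (SE; edgeR quasi-likelihood adjusted p = 1.14e-07). Dlx6 has no annotated exon base in common with Dlx6os1 but lies within its intron, so that without strand unspliced Dlx6os1 reads could count for Dlx6. Per read of Dlx6, the mutant libraries held 2.31, 2.67 and 2.84 reads of Dlx6os1 and the wild type libraries 10.5, 8.39 and 10.3. The log2 ratio, mutant minus wild type, was -1.92 ± 0.30 (SE; limma adjusted p = 1.59e-10; 95% interval of the signed difference -2.47 to -1.36). Against Dlx5 the difference in the log2 ratio of Dlx6os1 was -1.94 ± 0.252 (SE; limma adjusted p = 1.40e-14).

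The other noncoding rows differed in how much they kept. Dlx1as had 231, 203 and 192 reads in the mutant libraries and 615, 799 and 992 reads in the wild type libraries, which left 22.9% (20.2% to 27.1% over the library pairs), the highest share among the 8 rows. Dlx6os2 had 0, 1 and 0 reads in the mutant libraries and 36, 48 and 55 reads in the wild type libraries. After scaling for library size the ratio of wild type to mutant reads was 158, with a 95% Clopper-Pearson interval of 27.8 to 6272, which covers counting error only. Dlx6os2 passed the filter on low counts by its wild type reads alone, so that its call follows in part from that choice. The short Dlx6os1 row had 1, 0 and 0 reads in the mutant libraries and 5, 5 and 36 reads in the wild type libraries, did not pass the filter and was not tested. Its wild type values rest mainly on replicate 3, and a read on 104 of its bases fits the long row as well.

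**Figure D2:**
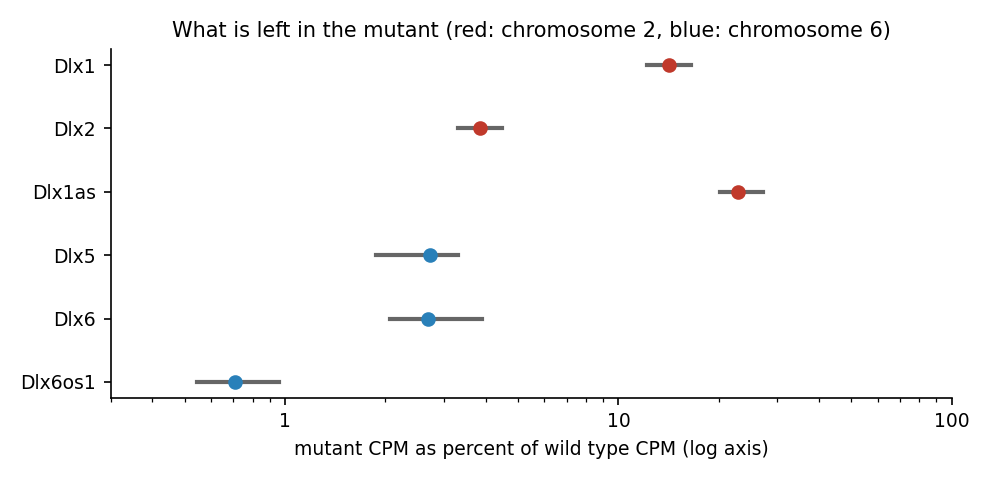
Share of the wild type CPM left in the mutant for the 6 rows with reads in every library, on a log axis, as the ratio of group means (points) with the range over the 9 pairs of a mutant and a wild type library (bars). The chromosome 2 rows run from 3.85% for Dlx2 to 22.9% for Dlx1as, and the chromosome 6 rows from 0.707% for Dlx6os1 to 2.72% for Dlx5.

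The log2 fold changes were -2.81 ± 0.103 for Dlx1, -4.70 ± 0.0988 for Dlx2 and -2.13 ± 0.0912 for Dlx1as, against -5.20 ± 0.206 for Dlx5 and -5.20 ± 0.244 for Dlx6 (mutant over wild type, SE, n = 3 each). The edgeR quasi-likelihood adjusted p lay between 1.14e-07 for Dlx2 and 3.44e-06 for Dlx1as. The 6 rows above the filter's minimum in every library, Dlx6os1 among them, all fell, and 12.8% of all tested genes were called lower. Ordered by log2 fold change from the deepest fall, Dlx6os1 was number 5 of the 15326 tested genes, Dlx6 17, Dlx5 18, Dlx2 27, Dlx1 97 and Dlx1as 175. Leaving out each library in turn and the other alternatives kept these calls, with log2 fold changes of -2.91 to -2.74 for Dlx1 and -7.32 to -7.03 for Dlx6os1. In the authors' deposited table the p-values ran from 0 for Dlx6os1 to 4.43e-06 for its short row, with no test named for them.

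**Figure D3:**
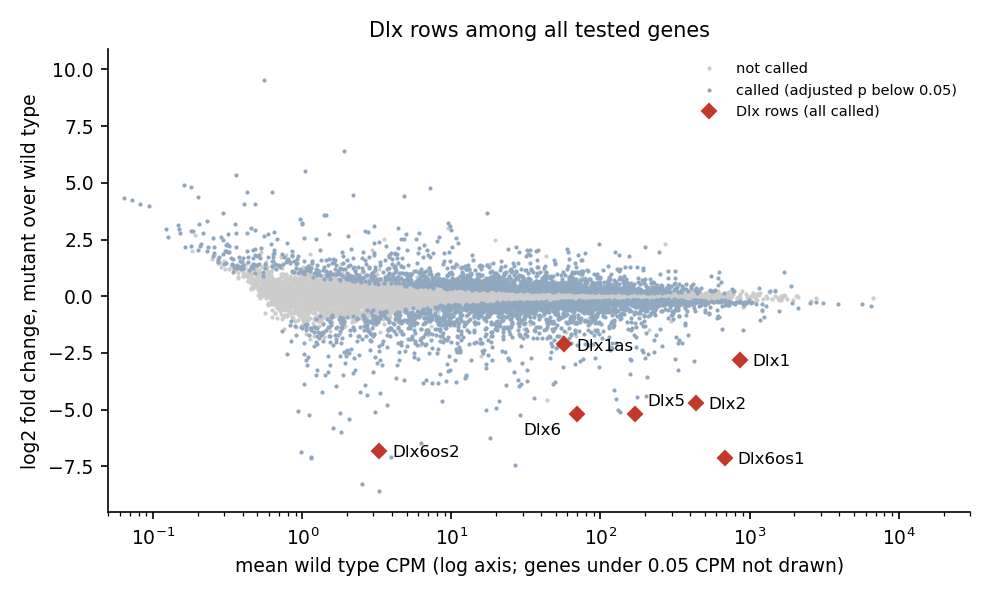
Log2 fold change, mutant over wild type, against the mean wild type CPM (log axis) for the tested genes, with called genes in blue, others in grey and the tested Dlx rows as red diamonds. Dlx6os1 stands alone at the lower right, at 680 CPM in wild type and a log2 fold change of -7.14, with Dlx2 above it at 436 CPM and -4.70.

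Whether the loss at Dlx5 and Dlx6 was deeper than at the targeted pair was asked of the ratios within libraries. Of the 15 pairs among the 6 rows with reads in every library, 14 differed in their change (limma on log2 ratios, adjusted p below 0.05 over all genes). The other 6 pairs hold Dlx6os2, with 1 mutant read and a place among the tested rows through its wild type reads alone; 3 of them passed, and nothing is read from that count. Among all tested genes 0.385% had a lower ratio to Dlx1 in the mutant by this test, 0.0718% a lower ratio to Dlx2, 0.0392% a lower ratio to Dlx5 and 0.0392% a lower ratio to Dlx6. A higher ratio was called for 98.7% against Dlx1, 99.6% against Dlx2, 99.8% against Dlx5 and 99.8% against Dlx6, since these rows themselves fell. The difference in log2 fold change was -2.39 ± 0.147 for Dlx5 minus Dlx1 (SE; limma adjusted p = 3.93e-10) and -2.41 ± 0.231 for Dlx6 minus Dlx1 (SE; limma adjusted p = 8.20e-08). The 95% intervals were -2.81 to -1.97 and -2.91 to -1.92.

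Against Dlx2 the difference was small and rested on few reads. The log2 ratio of Dlx5 to Dlx2, mutant minus wild type, was -0.512 ± 0.161 (SE; limma adjusted p = 0.00678; 95% interval -0.933 to -0.0906). The mutant libraries held 0.215, 0.339 and 0.279 reads of Dlx5 per read of Dlx2 and the wild type libraries 0.393, 0.401 and 0.380, so that the groups did not overlap. Without mutant replicate 1 the difference was -0.341 with a limma adjusted p of 0.0547. Dlx6 differed from Dlx2 by -0.532 ± 0.212 (SE; limma adjusted p = 0.0253; 95% interval -1.03 to -0.0359). Its groups overlapped in the ratio, and an exact permutation of the libraries gave a two-sided p of 0.3. That difference did not pass without mutant replicate 2, mutant replicate 3 or wild type replicate 2, at -0.455, -0.345 and -0.466 with limma adjusted p of 0.0809, 0.122 and 0.0819.

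No difference was seen between the partners on chromosome 6, within wide limits. The mutant libraries held 0.737, 0.289 and 0.301 reads of Dlx6 per read of Dlx5 and the wild type libraries 0.382, 0.439 and 0.412. The wild type ratios lay within the range of the mutant ratios. The difference was -0.0202 ± 0.283 (SE; limma adjusted p = 0.943), with a 95% interval of -0.609 to 0.568. Without mutant replicate 1, which held more Dlx6 and less Dlx5 than the others, it was -0.455 with a limma adjusted p of 0.0105. The intervals do not show that the partners lost equal shares.

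The Dlx1as row lost a smaller share than Dlx1, which lies within the span of Dlx1as. Without strand, reads on the 335 exon bases that they share, 20.55% of the Dlx1as exons, cannot be given to 1 row. The part of such reads, and of intron reads of Dlx1 or Metap1d, in the difference was not tested. Per read of Dlx1, the mutant libraries held 0.129, 0.108 and 0.0878 reads of Dlx1as, and the wild type libraries 0.0655, 0.0615 and 0.0720. The groups did not overlap, and the log2 ratio was higher in the mutant by 0.692 ± 0.158 (SE; limma adjusted p = 6.73e-04; 95% interval 0.405 to 0.979). No difference in loss could be settled between Dlx6os2 and Dlx6, with a log2 difference of -0.977 ± 0.621 (SE; limma adjusted p = 0.116; 95% interval -2.28 to 0.329) on 1 mutant read. Without mutant replicate 2, which held that read, it was -1.65 with a limma adjusted p of 0.0114, and with 2 added to each count it was 0.572.

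**Figure D4:**
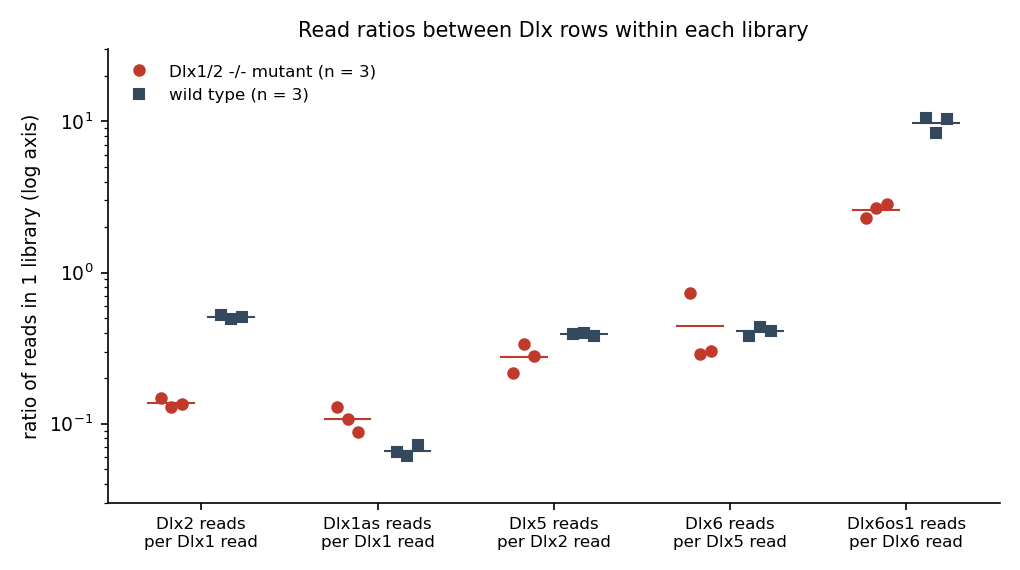
Reads of 1 Dlx row per read of another in the same library, on a log axis, with the 3 mutant libraries left of the 3 wild type libraries and a short line at each group mean. The ratio of Dlx2 to Dlx1 lies at 0.130 to 0.148 in the mutant and at 0.496 to 0.524 in wild type, and the ratio of Dlx6 to Dlx5 overlaps between the groups.

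The sum of the 8 rows was 151, 158 and 179 CPM in the mutant libraries, against 2431, 2175 and 2217 in the wild type libraries. Of these Dlx reads, 92.1% to 93.7% came from the chromosome 2 rows in the mutant and 58.7% to 60.4% in wild type. Dlx1 made up 72.1% to 76.6% of them in the mutant and 36.9% to 38.7% in wild type. These are shares of reads, so that longer rows weigh more in both groups.

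For levels between genes, CPM were divided by the length of the merged exons. In the mutant Dlx1 was at 22.6 ± 2.66 CPM per kb, Dlx1as at 7.97 ± 0.620, Dlx2 at 5.87 ± 0.587, Dlx5 at 2.05 ± 0.449, Dlx6os1 at 0.929 ± 0.189 and Dlx6 at 0.792 ± 0.247 CPM per kb (SD, n = 3). In wild type the order was another, with Dlx1 at 159 ± 6.61 CPM per kb, Dlx2 at 153 ± 10.4, Dlx6os1 at 131 ± 12.3, Dlx5 at 75.4 ± 5.79, Dlx1as at 34.9 ± 2.65 and Dlx6 at 29.4 ± 1.72 CPM per kb (SD, n = 3). Neighbours in these orders whose libraries overlapped were Dlx6os1 and Dlx6 in the mutant and Dlx1 and Dlx2 in wild type. Per length of merged exons, Dlx1as stood below Dlx2 and Dlx5 in wild type libraries and above both in every mutant library. With the length behind the deposited FPKM, Dlx1as and Dlx2 overlapped in the mutant, at 5.17 to 6.03 CPM per kb for Dlx1as and 4.997 to 6.02 CPM per kb for Dlx2.

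The FPKM values in the authors' deposited table order the wild type levels differently. There Dlx2 was at 139, Dlx1 at 80.2 and Dlx6os1 at 74.4 FPKM in wild type, as the authors' means. The length behind these values was 10601 bases for Dlx1 and 3099 bases for Dlx2, which equals the sum of all their distinct annotated exons with overlapping exons counted more than once, whereas the merged exons cover 5396 and 2855 bases. Per kb of the longest transcript, Dlx1 was at 208 and Dlx2 at 176 CPM in wild type. The order of Dlx1 and Dlx2 in wild type thus depends on the length used, and comparisons of 1 gene between genotypes do not. In the mutant the mean of Dlx1as lay above that of Dlx2 with each length. With the length behind the FPKM the means were close, at 5.57 and 5.41 CPM per kb, and the libraries overlapped.

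Genes beside the Dlx loci moved in both directions. Over both loci 7 of 24 tested neighbours (29.2%) fell and 4 rose, where 12.8% of all tested genes were called lower and 11.2% higher. Within 1 Mb of Dlx1 and Dlx2, 18 other genes were tested, of which 4 fell, 4 rose and 10 did not pass, with a median log2 fold change of -0.20. Of all tested genes 24% were called in either direction. The nearest tested gene on one side, Metap1d, a mitochondrial methionine aminopeptidase gene, rose to 55.0 CPM in the mutant, against 30.4 CPM in wild type (log2 fold change 0.86; edgeR adjusted p = 1.92e-04). Metap1d lies on the opposite strand to Dlx1as, and the spans of the genes overlap by 8741 bases, with 0 annotated exon bases in common. Reads from introns there could not be told apart without strand, and their part in either row was not tested. On the other side Platr26, a long noncoding RNA gene whose start lies 173 kb away, had 30, 21 and 21 reads in the mutant libraries and 0 in every wild type library. Against a floor of 3 reads over the wild type group it was at least 21.2-fold higher in the mutant. Itga6, an integrin subunit gene, was at 49.8 CPM in the mutant and 23.3 CPM in wild type (log2 fold change 1.09; edgeR adjusted p = 6.47e-05). Slc25a12 also rose (log2 fold change 0.22). The 4 genes that fell were Gad1 (-1.28), Rapgef4 (-0.59), Cdca7 (-0.33) and Hat1 (-0.29). Gad1 was at 152 CPM in the mutant and 369 CPM in wild type (edgeR adjusted p = 1.07e-06). Of the 8 neighbours called at this locus, 3 (Slc25a12, Hat1 and Rapgef4) lost the call when some single library was left out.

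Around Dlx5 and Dlx6 there were 6 other tested genes within 1 Mb, of which 3 fell, 0 rose and 3 did not pass, with a median log2 fold change of -0.48. The nearest ones on either side were not called. Sdhaf3, an assembly factor of succinate dehydrogenase whose start lies 73.9 kb away, was at 7.29 CPM in the mutant and 7.34 CPM in wild type (edgeR adjusted p = 0.982). Shfm1, which encodes a small proteasome subunit, was at 57.0 CPM in the mutant and 57.2 CPM in wild type (edgeR adjusted p = 0.996). The falls lay farther out, at Slc25a13, a mitochondrial carrier gene (log2 fold change -0.96), Tac1, the substance P precursor gene (-3.85), and Asns, the asparagine synthetase gene (-1.65). Within 0.5 Mb of this locus Sdhaf3 and Shfm1 were the only tested neighbours, so that the 0 falls there are no separate result.

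**Figure D5:**
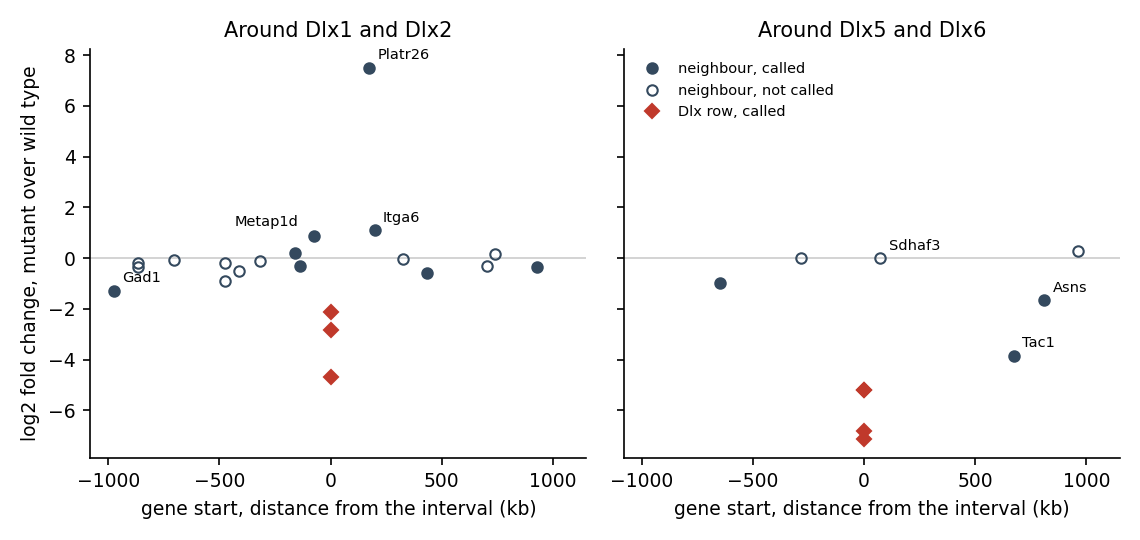
Log2 fold change, mutant over wild type, of tested genes within 1 Mb of the Dlx1 and Dlx2 interval (left) and of the Dlx5 and Dlx6 interval (right), by the distance of the gene start from the interval in kb; filled circles are called neighbours, open circles are not called, and red diamonds at 0 are the Dlx rows. The nearest tested genes to Dlx5 and Dlx6 lie at about 0, while the Dlx rows there lie at -5.20 and below.

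The genes whose pattern over the 6 libraries was most like that of Dlx5 were sought among 14362 other genes with at least 1 CPM in wild type, by the root mean square difference of log2 CPM centred on the wild type mean. They were Rxrg, a retinoid X receptor gene (0.248), Cntnap3, a cell adhesion gene (0.285), Slc32a1, the vesicular GABA transporter gene (0.289), and Sowaha (0.317). By the same measure Dlx2 was at 0.409, Dlx6 at 0.439, Dlx6os1 at 1.42 and Dlx1 at 1.70. Rxrg had 51, 86 and 55 reads in the mutant libraries and 1262, 2356 and 2238 reads in the wild type libraries. The measure also placed Gm14205, an uncharacterised gene, among the nearest 5, but with 0 reads in every mutant library and 50 over the wild type group its place is set by the count added before the logarithm and has no meaning. Against a floor of 3 reads over the mutant group it was at least 18.9-fold lower in the mutant. Likeness here describes 6 libraries of 2 groups and says nothing of shared function.

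Other genes tied to Dlx function in earlier work moved in both directions, and few fell as far as Dlx1. The list held 34 genes, of which 29 were tested. Those called higher were 10 and those called lower 13, while 6 did not pass, with a median log2 fold change of -0.20 (0.0028 over all tested genes). Of all tested genes 12.8% were called lower and 11.2% higher. Of 15 genes described as lower without Dlx1 and Dlx2, 13 fell and 0 rose. Aldh1a3, a retinoic acid synthesising enzyme gene, had a log2 fold change of -7.45 and Slc32a1 one of -5.03, and they were the only genes of this list to fall further than Dlx1. Aldh1a3 had 7 reads over the mutant group, at a mean of 0.146 CPM, below the floor of 3 counts in a library. It passed the filter by its wild type reads alone, and the depth of its fall is uncertain. Npas1, a helix-loop-helix factor gene, was at 2.48 ± 0.466 CPM in the mutant and 9.87 ± 1.10 CPM in wild type (SD, n = 3 each). Cxcr4, a chemokine receptor gene of migrating neurons, was at 15.6 ± 0.550 CPM in the mutant and 53.1 ± 4.11 CPM in wild type (SD, n = 3 each; log2 fold change -1.77). Sp9 and Lhx6 did not pass the test, with log2 fold changes of -0.14 and -0.20.

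Among 7 listed factors that act before or beside Dlx genes in the forebrain, 6 were tested, of which 3 rose, 0 fell and 3 did not pass. Over all tested genes the shares were 11.2% higher and 12.8% lower. Gsx2, a homeobox factor of LGE progenitors, was at 54.7 ± 2.42 CPM in the mutant and 24.6 ± 4.17 CPM in wild type (SD, n = 3 each). Gsx1, the relative of Gsx2, rose by 4.78 on the log2 scale. All 6 genes described as higher without Dlx1 and Dlx2 rose, among them Olig2, an oligodendrocyte lineage factor gene (log2 fold change 0.78). Otp, also among them, passed the filter through its mutant reads. Among paralogs and protein partners 2 of 6 were tested and 1 passed, Maged1, which encodes a Dlx-binding protein and lost the call without mutant replicate 2 or 3 or wild type replicate 1 or 2. Dlx3 had 0 reads in the mutant and 2 in wild type. The list was drawn up from work on these mutants with results of these data known, so that its directions are no independent evidence.

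Markers of other cell types and regions were measured in the same libraries, and their part in the Dlx differences was not tested. The 4 microglial markers summed to 49.4 to 60.0 CPM in the mutant libraries and 39.4 to 49.5 CPM in the wild type libraries, and the 4 endothelial markers to 90.8 to 98.0 CPM in the mutant and 92.2 to 108 CPM in wild type. None of these 8 was called, where 24% of all tested genes were called in either direction. Of 4 erythroid markers 1 rose, with sums of 332 to 464 CPM in the mutant and 251 to 326 CPM in wild type. Of 5 pallial markers 3 were tested and 1 rose, with sums of 41.9 to 71.4 CPM in the mutant and 15.0 to 48.0 CPM in wild type. The higher sum came from that marker, Neurod6, at 44.5 CPM in the mutant and 8.05 CPM in wild type. Tbr1, at 6.91 CPM in the mutant and 12.6 CPM in wild type, and Eomes, at 4.33 CPM in the mutant and 8.61 CPM in wild type, did not pass the test. Of 3 markers of the medial ganglionic eminence, another Dlx-expressing region, 1 (Lhx8) fell, with sums of 206 to 252 CPM in the mutant and 189 to 350 CPM in wild type. Nkx2-1, its defining factor, was at 43.9, 106 and 61.6 CPM in the mutant libraries and 37.7, 73.7 and 114 CPM in the wild type libraries. Of 4 diencephalic markers the 2 tested both rose, with sums of 436 to 499 CPM in the mutant and 0.974 to 1.69 CPM in wild type, most of the mutant sum from Otp, which is also in the list of genes described as higher. In wild type Otp (0.557 CPM) and Lhx9 (0.629 CPM) lay below the filter's cutoff of 0.634 CPM on average. Both were tested through their mutant reads, so that nothing is read from that count of rises. No marker list had a marker at 0 reads over either group.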

How the data were processed

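The table gives, for each gene and library, a read count and an FPKM value, and for each gene the authors' mean FPKM per group and a p-value, per the file headers. Tools listed in the submitters' processing notes are StringTie 1.3.0, HISAT2 2.0.4 and edgeR; GRCm38.p4 and mm10 are listed as builds, with no roles. The counter, the annotation and whether strand was used are not stated in those notes or the labels. The deposited counts are raw, with no row that names no gene, and they alone were tested. The length behind the deposited FPKM equals the sum of distinct exons within 0.1% for 69.5% of the 15404 genes compared in GENCODE M21, and the merged exons for 14.0%; 99.4% of gene IDs were found there. The deposited p-value, whose test is not named, is only quoted.

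Tests on counts used edgeR 4.0.16 under R 4.3.3 (filterByExpr, TMM, glmQLFit and glmQLFTest, two-sided, Benjamini-Hochberg over 15326 genes, threshold 0.05). The filter's cutoff was 0.634 CPM, in at least as many libraries as a group holds. The SE of a log2 fold change is that of log2 CPM with 0.5 added to each count. Ratios between rows were fitted with limma 3.58.1 on log2 ratios of all genes to 1 row. These ratios share the error of that row, which makes their p-values too small. The 95% intervals of differences therefore come from the variances of the single genes. They add the variances of the 2 rows as if independent and leave out how the rows move together within a library. The SE by this route was 0.241 against 0.300 from the ratios for Dlx6os1 and Dlx6. It was larger for other pairs, at 0.181 against 0.147 for Dlx5 and Dlx1. An interval can thus be too narrow or too wide. By this route too 14 of the 15 pairs without Dlx6os2 passed, but with p adjusted over only the 21 pairs of tested rows, not over all genes. The alternatives were RLE scaling, no filter, DESeq2 1.42.0, a replicate block, leaving out each library, adjusted p below 0.01, 2 added to each count for ratios, and a 0.5 Mb window for neighbours; other gene lengths and the single-gene variances were added after seeing the data. The named genes were the rows themselves, the listed pathway genes and markers, neighbours that passed or lay nearest, and the 5 genes most like Dlx5; some listed genes are given as counts only, and some are not reported here. Replicates of a group differed by more than sampling noise (chi-square per degree of freedom 7.56 to 15.0). A floor of 3 counts is 0.181 to 0.287 CPM in a library. Scripts were tested on simulated counts. The members and lists were chosen with earlier results of these data known.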

Additional observations from a re-analysis of the deposited data

How the results depend on the processing

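The log2 fold changes of the 6 Dlx rows with reads in every library kept their direction and their call under RLE scaling, no filter, the DESeq2 test, the replicate block, an adjusted p below 0.01 and leaving out each library (11 alternatives). At an adjusted p below 0.01, 875 genes were higher and 1116 lower. Fits with the replicate number as a block gave 1223 genes higher and 1457 lower, against 1715 and 1958 without it. Deviations of same-numbered libraries from their group means had correlations of -0.176, 0.0426 and -0.168. With so few libraries these values cannot settle whether the numbers pair samples. Within 0.5 Mb, 2 neighbours of Dlx1 and Dlx2 and 0 of Dlx5 and Dlx6 fell, where 12.8% of all tested genes were called lower. The count at Dlx5 and Dlx6 rests on Sdhaf3 and Shfm1 alone. With 2 added to each count, Dlx6 minus Dlx5 was 0.0217 and Dlx6os2 minus Dlx6 was 0.572. Leaving out each library gave log2 differences of -0.666 to -0.341 for Dlx5 minus Dlx2, -0.796 to -0.345 for Dlx6 minus Dlx2, -0.455 to 0.212 for Dlx6 minus Dlx5 and -1.65 to -0.457 for Dlx6os2 minus Dlx6. It gave log2 fold changes of -0.516 to 0.332 for Nkx2-1, -0.141 to 0.187 for Shfm1 and -0.0925 to 0.0483 for Sdhaf3. The causes were not tested. Depth limits Dlx6os2 and the short Dlx6os1 row, with 1 mutant read each.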
